A study of Homo sapiens with 63 samples.

Results

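RAB mRNAs encode the RAB family of small GTPases, the switches that mark membranes along the secretory and endocytic routes. They were taken as every gene in the table whose symbol is RAB, a number and at most 1 further letter. This gave 44 of 11074 genes. The rule read only the symbol, in a table that holds a filtered gene set. Their profiles were followed through gradients of lysate from HEK293, a line derived from human embryonic kidney. The amino acid-starved cells had been kept for 1 h in a balanced salt solution (EBSS) to which vitamins, serum and antibiotics were added. The serum-starved cells had been kept for 2 h without fetal bovine serum, and the log phase cells grew with serum in DMEM. Cells of all conditions then received 10 min of cycloheximide, which holds ribosomes on mRNA, before lysis. Each lysate was spread over 1 gradient, and RNA with poly(A) tails was sequenced from fractions 3 to 22, so every condition is 1 gradient of 20 fractions. The conditions have no replicates, so the differences below are sizes without a test. The labels do not state which end of the fraction numbering holds the heavier complexes, so results are given as lower- and higher-numbered fractions.

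A RAB protein cycles between a GDP form held in the cytosol by GDI proteins and a GTP form on a membrane. Exchange factors load GTP, GTPase-activating proteins remove it, and the GTP form recruits effectors that move, tether or fuse vesicles. A geranylgeranyl lipid tail, added by RABGGT with the escort proteins CHM and CHML, lets the protein bind membranes. RAB1 and RAB2 act between the endoplasmic reticulum (ER) and the Golgi, RAB5 on early endosomes, RAB4 and RAB11 in recycling, RAB7A at late endosomes and lysosomes, and RAB3, RAB10 and RAB27A in exocytosis. In mammalian cells, mRNAs that begin with a C followed by a run of pyrimidines (C or T) at the 5′ end, called TOP mRNAs, are known to leave polysomes when growth signals fall.

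The first bases of the transcripts were therefore read from the RefSeq promoter windows (GRCh38.p14), which had an entry for 36 of the 44 RABs. A start was counted as a C at the annotated first base followed without a break by at least 4 more pyrimidines, read on the gene's strand only. Of the 36 RABs, 3 (8.33%) had such a start, against 492 of 8699 tested genes with an entry (5.66%) and 38 of 59 ribosomal protein genes (64.4%). Those 3 were RAB3D, RAB4A and RAB13. The windows below run 5′ to 3′, from 30 bases before the annotated start to 20 bases from it. Capitals mark the pyrimidine run in the first 3 windows and the annotated first base in the others. They show these 3 starts beside those of 5 RABs that carry the results below, of which RAB40B was placed lower and RAB7A, RAB6A and RAB5C higher relative to the median gene in both starved gradients, and RAB3B lower in the amino acid-starved gradient.
RAB3D: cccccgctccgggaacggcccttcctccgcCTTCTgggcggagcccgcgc
RAB4A: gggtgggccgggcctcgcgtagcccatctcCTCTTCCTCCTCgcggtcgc
RAB13: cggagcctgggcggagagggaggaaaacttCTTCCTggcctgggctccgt
RAB3B: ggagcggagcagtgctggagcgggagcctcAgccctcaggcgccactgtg
RAB40B: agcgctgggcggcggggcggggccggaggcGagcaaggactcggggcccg
RAB7A: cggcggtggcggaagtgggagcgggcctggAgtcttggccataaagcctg
RAB6A: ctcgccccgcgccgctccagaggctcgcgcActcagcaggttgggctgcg
RAB5C: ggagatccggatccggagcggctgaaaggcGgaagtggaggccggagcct

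These windows lie at chr19:11339638-11339687 (RAB3D, minus strand), chr1:229271081-229271130 (RAB4A, plus strand), chr1:153986320-153986369 (RAB13, minus strand) and chr1:51990681-51990730 (RAB3B, minus strand). The others lie at chr17:82698679-82698728 (RAB40B, minus strand), chr3:128726153-128726202 (RAB7A, plus strand), chr11:73761055-73761104 (RAB6A, minus strand) and chr17:42154970-42155019 (RAB5C, minus strand). Each window joins upstream sequence to the start of the first exon, except that the RAB13 window lies inside the gene's annotated span (chr1:153981650-153990708), so RefSeq also holds a start further upstream. Runs were 12 pyrimidines long in RAB4A, 6 in RAB13 and 5 in RAB3D. The start that HEK293 cells use was not measured.

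Position was the mean fraction number of a gene, weighted by its signal. The deposited values are called TPM, a per-length unit, but the fractions differ by a scale factor for which no source used here gives the basis, and the values are called signal. Column totals over genes and spike-in RNAs ran between 37017 and 66998839. Library depth is unknown, so no counting error could be attached. Of 4 HEK293 markers, NEFM, NEFL and INA were in the table, with NEFM at 458, 507 and 346 per 1000000 of signal in the amino acid-starved, serum-starved and log phase gradients, NEFL at 288, 268.7 and 380.5, and INA low at 1.68, 2.01 and 2.51. None of 5 markers of blood, fibroblast and liver cells was among the genes of this table, which holds a filtered gene set.

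In every gradient most RAB mRNAs lay in the upper part of the numbering. The median RAB position was 15.50 in the amino acid-starved gradient, 15.88 in the serum-starved gradient and 16.64 in the log phase gradient. The medians over all 10889 genes that passed the filter on low signal (a mean signal of 5 per gradient, and at least 15 of the 20 fractions above 0) were 15.12, 15.62 and 16.94 in the same order. All 44 RABs passed. The RABs thus lay on either side of the median gene: 24, 24 and 16 of the 44 were above it. With every fraction given the same total, the RAB medians were 16.06, 15.95 and 14.43, against 16.01, 15.91 and 14.22 for all genes, so that in log phase the RAB median was then above, not below, the median gene.

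**Figure D1:**
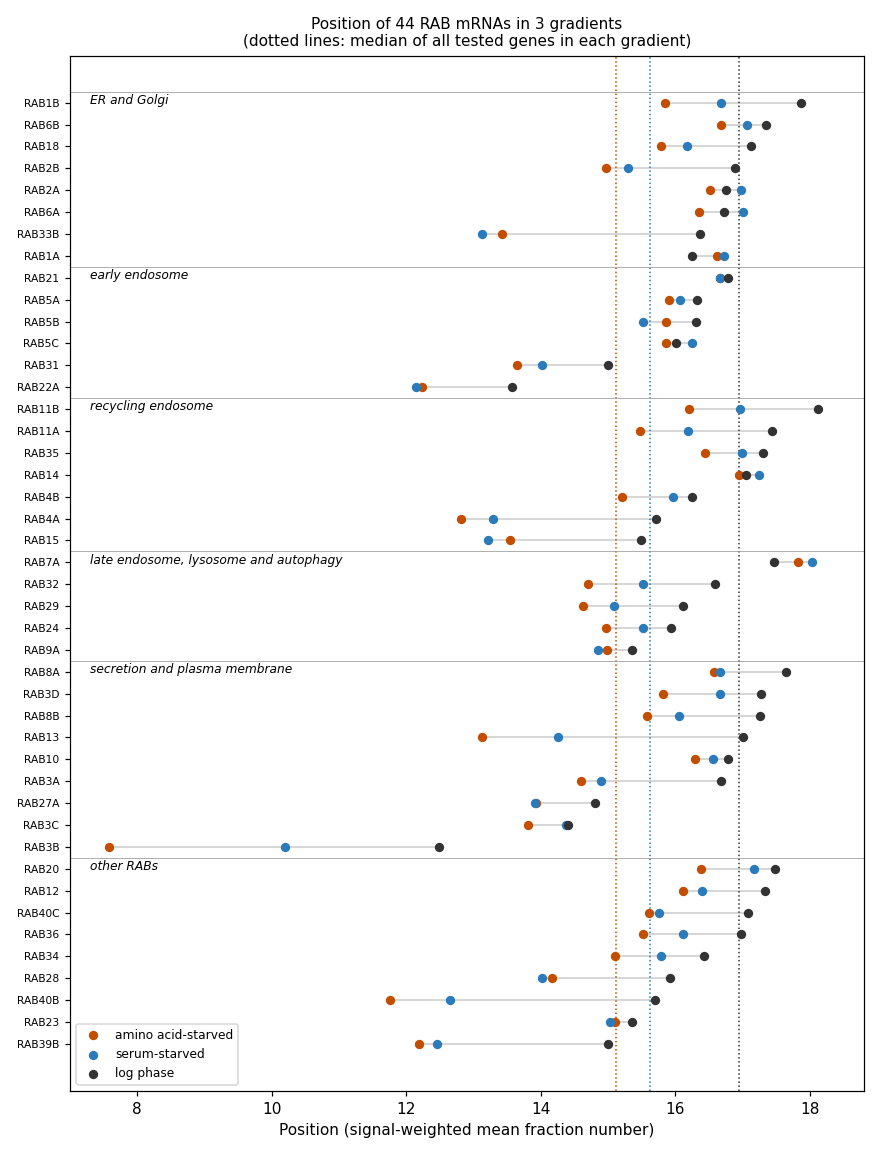
Position (signal-weighted mean fraction number) of each of the 44 RAB mRNAs in the amino acid-starved, serum-starved and log phase gradients, grouped by role, with 1 point per gradient and dotted lines at the medians of all tested genes. RAB3B has the lowest point in each gradient, at 7.58, 10.20 and 12.48, and the points of RAB7A, RAB14 and RAB1A lie close together.

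RAB11B, which acts in slow recycling, had the highest position in log phase at 18.13, followed by RAB1B at 17.87, RAB8A at 17.64, RAB20 at 17.48 and RAB7A at 17.46. RAB7A was highest in both starved gradients, at 17.82 without amino acids and 18.03 without serum. At the other end stood RAB3B, at 7.58, 10.20 and 12.48 in the amino acid-starved, serum-starved and log phase gradients. RAB22A, an endosomal sorting RAB, was also low throughout, at 12.24, 12.15 and 13.57. RAB22A had 57.4%, 61.9% and 41.5% of its signal in fractions 8 to 12 in those gradients, the largest of 4 windows of 5 fractions in both starved gradients.

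The bulk of RAB signal stayed in the high-numbered fractions while that of all genes did not. Summed over the 44 genes, RAB signal peaked in fraction 19 without amino acids, in 18 without serum and in 18 in log phase, whereas the sum over all genes peaked in 9, 9 and 18. Fractions 18 to 22 held 32.4%, 43.2% and 45.3% of the RAB sum, against 14.6%, 22.4% and 43.8% of the sum over all genes. That contrast rests on the weight of abundant genes. Per gene, the median RAB had 27.8%, 39.8% and 39.6% of its signal there, close to the median gene without amino acids (27.2%) and without serum (39.1%), and below it in log phase (48.5%). All these shares carry the unknown scale of the fractions.

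The shift of a gene was the difference of its positions, starved minus log phase, after subtracting what the median gene moved. Before this centring the median RAB moved by -1.33 fractions without amino acids and by -0.92 without serum, and the median gene by -1.80 and -1.35. A positive shift therefore means a higher-numbered place relative to other mRNAs, and often a lower-numbered place than in log phase. The size rule, a bound on size and no test, asked for a shift of 1 fraction or more that also reached 0.5 the same way in the odd and in the even fractions taken apart. Odd and even fractions are the only measure of spread within a gradient.

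Without amino acids, 13 of 44 RABs (29.5%) met the size rule as higher, against 6.84% of all tested genes. Lower were 5 (11.4%), against 9.57% of all tested genes. The median RAB shift was 0.47 (0.63 in odd and 0.41 in even fractions), and 31 of 44 were above 0. Without serum, 14 (31.8%) were higher, against 5.7% of all tested genes, and 5 (11.4%) were lower, against 9.86%. That median was 0.43 (0.52 odd, 0.40 even), with 33 above 0. The share of RABs called lower was thus near the share of all genes, and the share called higher was above it in both comparisons, which share the log phase gradient and are not independent.

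These counts moved with the scale of the fractions. With every fraction given the same total, 7 RABs (15.9%) were higher without amino acids, against 13% of all genes, and 5 (11.4%) without serum, against 12.1%, so that both shares were near the background. Lower were then 9 (20.5%, against 16%) and 8 (18.2%, against 13.1%). With fractions divided by the sum of the spike-in RNAs, the counts were 14 (31.8%, against 8.45%) without amino acids and 10 (22.7%, against 4.82%) without serum, with 2 (4.55%, against 10%) and 3 (6.82%, against 7.97%) lower. With log2 signal as the weight, which flattens the profiles of abundant genes, 0 were higher in either comparison, against 0.119% and 0.129% of all genes without amino acids and without serum, and 0 were lower, against 0.652% and 0.496%. All 13 RABs called higher without amino acids stayed above 0 under equal totals and under spike-in scaling, and of the 14 called higher without serum, all but RAB21 (-0.34 with equal totals) did so. With equal totals, however, 5 of the 13 (RAB1A, RAB5A, RAB5C, RAB9A and RAB23) and 3 of the 14 (RAB4B, RAB5C and RAB23) still met the rule.

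The size rule also depended on single fractions for RABs close to its bound. Without amino acids, the higher call of RAB6B was lost without fraction 19 (0.98), and the lower call of RAB33B without 9, 18 or 20 (-0.63 at the weakest). Without serum, the higher calls of RAB1A, RAB2A, RAB5C, RAB6A, RAB7A, RAB14 and RAB21 held whichever fraction was left out. The others lost theirs without at least 1 fraction. These were RAB5A (0.89 without 19), RAB10 (lowest 0.98, without 10 or 19), RAB4B (lowest 0.83, without 9, 10 or 12), RAB6B (lowest 0.89, without 10, 19 or 20), RAB35 (lowest 0.91, without 10, 19, 20 or 21), RAB20 (lowest 0.85, without any of 6 fractions) and RAB23 (lowest 0.88, without any of 11). Of the lower calls without serum, RAB39B lost its own without 5, 8, 18 or 19 (-0.79 at the weakest) and RAB33B without 9 (-1.43, but under 0.5 in the odd or the even fractions). RAB13 and RAB40B kept theirs in both comparisons.

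**Figure D2:**
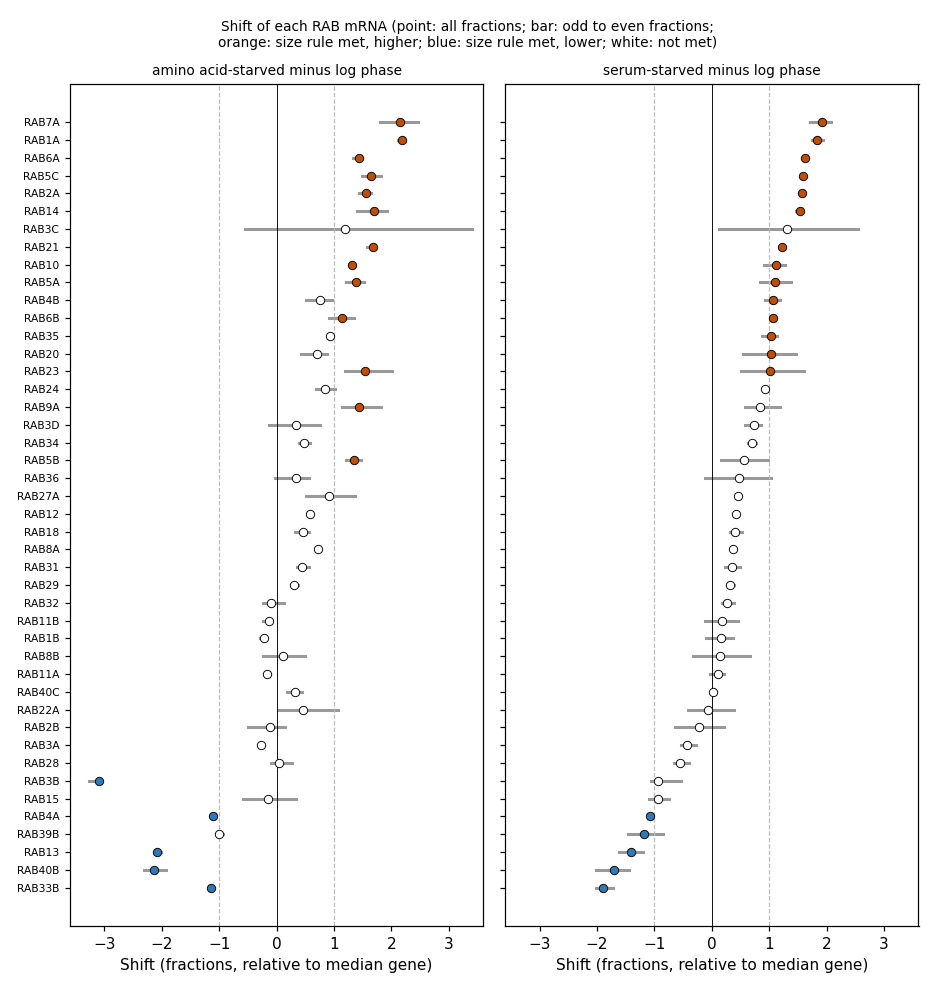
Shift of each RAB mRNA, in fractions relative to the median gene, for amino acid-starved minus log phase (left) and serum-starved minus log phase (right), with a point for all fractions and a bar spanning the odd-fraction and even-fraction values. RAB7A and RAB1A stand at the positive end of both panels, and RAB40B and RAB13 near the negative end. The lowest points are RAB3B (-3.10) without amino acids and RAB33B (-1.89) without serum. The bar of RAB3C spans -0.56 to 3.41 without amino acids.

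RAB1A (chr2:65086854-65130106, GRCh38.p14), which drives ER to Golgi transport and early steps of autophagosome formation, was among the RABs of highest shift. Its signal over the 20 fractions was lowest at 0.43, with a median of 206 and a maximum of 1839 in fraction 19, without amino acids. Without serum these values were 0, 234 and 1994, the last in fraction 18, and in log phase they were 0.33, 673 and 10333, the last in fraction 16. The peak thus lay in a higher-numbered fraction in each starved gradient. Signal in fractions 18 to 22 made up 51.0% without amino acids and 51.6% without serum, against 28.3% in log phase. The shift of RAB1A was 2.18 without amino acids (2.19 odd, 2.11 even) and 1.83 without serum (1.93 odd, 1.74 even). With equal totals the shifts of RAB1A were 1.33 and 0.65, and the serum call was lost. Without centring it moved by 0.38 and 0.49 fractions.

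The ER and Golgi RABs divided. Of the 8 tested, RAB1A included, 4 were higher and 1 lower without amino acids (median shift 0.80), and the same was counted without serum (median 0.73), beside 6.84% and 5.7% of all genes higher. With equal totals 1 (RAB1A) and 0 of the 8 were higher, against 13% and 12.1% of all genes, with medians of 0.31 and 0.16. In each comparison 1 (RAB1B) was then lower, against 16% and 13.1% of all genes. RAB2A, which acts between Golgi and ER and in lysosome fusion, had shifts of 1.56 and 1.57. RAB6A, a Golgi RAB of retrograde transport, had 1.44 and 1.63, and its relative RAB6B, known from neurons, had 1.14 and 1.06. Reads of RAB6A could be shared with RAB6C, a near-identical retrocopy that is not among the rows used, so its values are uncertain for that reason. RAB33B, a Golgi RAB that binds the autophagy protein ATG16L1, went the other way, with -1.14 without amino acids and -1.89 without serum. Its signal was low, with medians of 17.3, 17.6 and 30.8 over the fractions of the amino acid-starved, serum-starved and log phase gradients, and with equal totals its shifts were 0.27 and -0.50, outside the rule. RAB18 (0.46 and 0.40), a RAB of lipid droplets and the ER, did not meet the rule.

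Among early endosomal RABs the rule was met mainly by RAB5 genes. Without amino acids 4 of 6 were higher and 0 lower (median 1.37), and without serum 3 of 6 were higher and 0 lower (median 0.83), beside 6.84% and 5.7% of all genes higher. With equal totals 2 and 1 of the 6 were higher, against 13% and 12.1% of all genes, with medians of 0.84 and 0.41. RAB5C (chr17:42124979-42154989), one of 3 genes for the GTPase of early endosome fusion, had a lowest, median and highest signal of 7.82, 349 and 2107 without amino acids, 4.40, 333 and 2797 without serum, and 1.96, 1542 and 10765 in log phase. The maximum lay in fraction 17 in both starved gradients and in fraction 16 in log phase, and the profiles overlapped over most fractions. RAB5C shifts were 1.65 and 1.59 in the amino acid and serum comparisons, and with equal totals 1.13 and 1.01. RAB5A had 1.38 and 1.10, and RAB5B had 1.35 and, below the rule, 0.56. RAB21, an endosomal RAB of integrin traffic, had 1.67 and 1.23. RAB22A (0.47 and -0.07) and RAB31 (0.45 and 0.36), which acts between the trans-Golgi network and endosomes, stayed near the median gene.

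At late endosomes, RAB7A (chr3:128726183-128814798), the GTPase of fusion with lysosomes, had the highest-numbered profile of the family after starvation. Without amino acids its lowest, median and highest signals were 8.58, 113 and 3154. Without serum they were 4.07, 139.5 and 3377, and in log phase 2.19, 765 and 13345. The maximum was in fraction 19 in both starved gradients and in fraction 18 in log phase, so the groups overlapped in the same high-numbered fractions. Fractions 18 to 22 held 67.8% and 71.0% of RAB7A signal without amino acids and without serum, against 55.3% in log phase. Its shifts were 2.16 (1.79 odd, 2.47 even) and 1.92 (1.71 odd, 2.08 even), and before centring 0.36 and 0.57. With equal totals they were 0.90 and 0.95, and both calls were lost. RAB9A, which returns mannose 6-phosphate receptors to the Golgi, met the rule without amino acids at 1.44 and stood at 0.85 without serum. RAB24, RAB29 and RAB32, with roles in autophagy and lysosome-related organelles, ranged over -0.09 to 0.84 and 0.27 to 0.93 in the same comparisons, and 0 of the 3 met the rule on the deposited scale. RAB24 met it as higher with spike-in scaling (1.03 and 1.12) and, without serum, with equal totals (1.23).

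**Figure D3:**
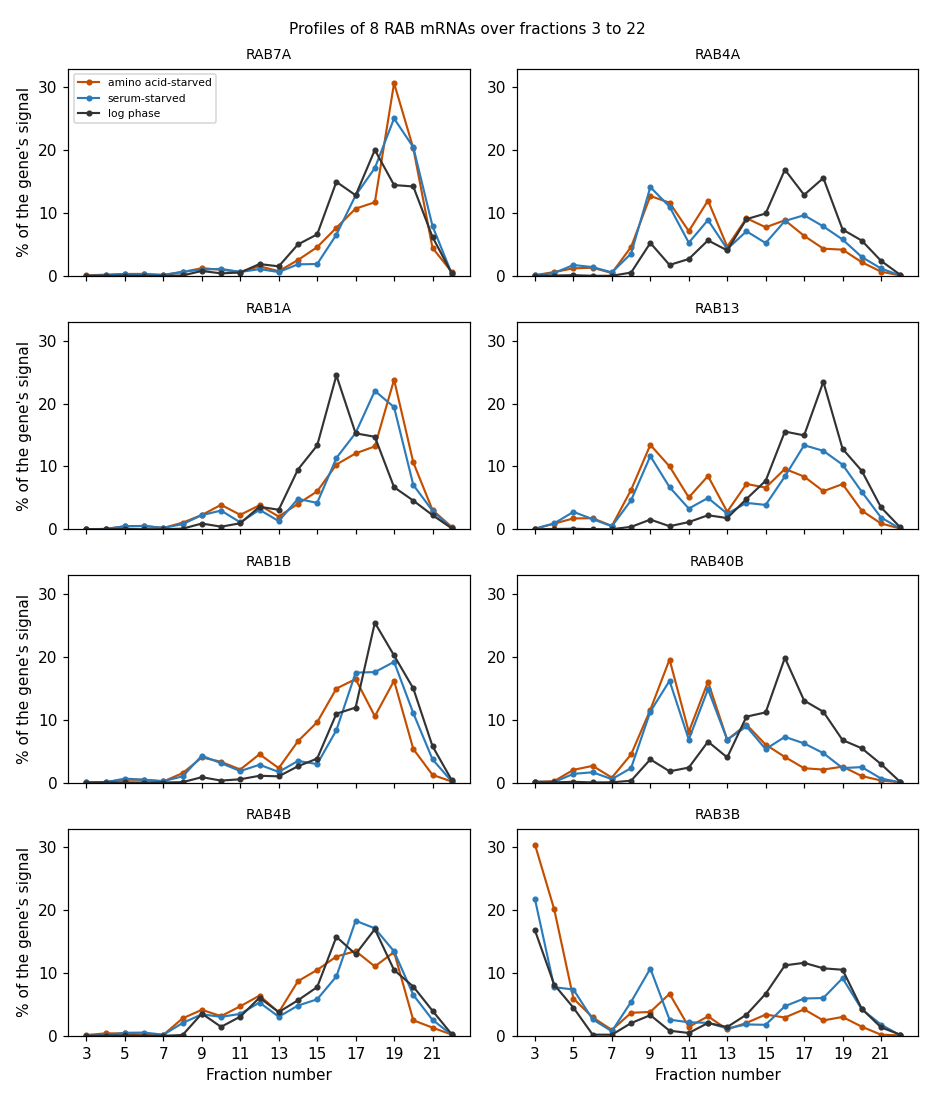
Share of each gene's signal (%) in fractions 3 to 22 for 8 RAB mRNAs, with 1 line per gradient (amino acid-starved, serum-starved, log phase). The starved lines of RAB7A and RAB1A peak in fractions 18 and 19, those of RAB4A, RAB13 and RAB40B stand above the log phase line in fractions 8 to 12, and RAB3B peaks in fraction 3 in every gradient.

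Recycling RABs did not move together. RAB14, which acts between Golgi and endosomes, had a lowest, median and highest signal of 6.29, 94.1 and 1137 without amino acids, 4.40, 126 and 1543 without serum, and 1.73, 473 and 8651 in log phase. The maximum was in fraction 19 in both starved gradients and in 16 in log phase. RAB14 shifts were 1.70 without amino acids and 1.54 without serum, and with equal totals 0.88 and 0.58, below the rule. RAB35, of fast recycling at the plasma membrane, met the rule without serum (1.04) and stood at 0.93 without amino acids. RAB11A (-0.16 and 0.10) and RAB11B (-0.13 and 0.18), the slow recycling RABs, kept to the median gene, and so did RAB15 without amino acids (-0.15, and -0.93 without serum). With equal totals, RAB11A stood at -0.83 and -1.03 and RAB11B at -2.06 and -1.32.

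RAB4A (chr1:229271111-229305894) and RAB4B are close relatives that both act in fast recycling from early endosomes, and their mRNAs moved apart. RAB4A had a lowest, median and highest signal of 9.15, 524 and 1492 without amino acids, 6.23, 540.3 and 1607 without serum, and 2.04, 966 and 4847 in log phase. The maximum was in fraction 9 in both starved gradients and in fraction 16 in log phase. Fractions 8 to 12 held 48.1% and 42.9% of RAB4A signal without amino acids and without serum, against 15.9% in log phase. For RAB4B the same shares were 21.2%, 17.3% and 14.3%. The shifts were -1.10 and -1.08 for RAB4A, and 0.75 and 1.07 for RAB4B, so that the pair differed by -1.86 and -2.15 fractions (RAB4A minus RAB4B, amino acid and serum comparison). This difference was -1.97 and -2.39 with equal totals and -1.58 and -1.93 with spike-in scaling. The RAB4A start carries the longest pyrimidine run shown above, and RAB4B had a promoter entry with no such start. The RAB4A call itself was lost without fraction 18 or 19 in the amino acid comparison and without 9, 18 or 20 in the serum comparison, at -0.88 and -0.96 at the weakest.

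Among secretory RABs, RAB13 (chr1:153981650-153990708), a RAB of tight junctions and cell protrusions, had the lowest shift without serum and, after RAB3B, without amino acids. Its lowest, median and highest signals were 12.9, 726 and 1755 without amino acids, 6.90, 491 and 1630.4 without serum, and 1.07, 518 and 7348 in log phase. The maximum was in fraction 9 without amino acids, in 17 without serum and in 18 in log phase. Fractions 8 to 12 held 43.2%, 31.2% and 5.7% of RAB13 signal in the amino acid-starved, serum-starved and log phase gradients, and fractions 18 to 22 held 17.2%, 30.7% and 49.3%. RAB13 shifts were -2.08 (-2.12 odd, -2.01 even) without amino acids and -1.41 (-1.62 odd, -1.20 even) without serum. They were larger with equal totals (-3.04 and -2.57) and with spike-in scaling (-2.34 and -1.74). RAB10, of regulated exocytosis such as GLUT4 delivery, met the rule in the other direction with 1.31 and 1.11. RAB8A (0.73 and 0.38) and RAB8B (0.11 and 0.15), of polarised secretion and cilia, and RAB27A (0.92 and 0.45), of secretory granules and exosomes, did not meet it.

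RAB3B (chr1:51907956-51990700), of the RAB3 group known from regulated secretion, had a profile unlike the rest. Its lowest, median and highest signals were 1.12, 44.8 and 458 without amino acids, 0.79, 34.2 and 217 without serum, and 3.54, 63.6 and 319.9 in log phase, with the maximum in fraction 3 of every gradient. Fractions 3 to 7 held 60.4%, 40.2% and 29.8% of RAB3B signal in the amino acid-starved, serum-starved and log phase gradients, while the median RAB had 1.30%, 1.51% and 0.081% there. RAB3B had a shift of -3.10 without amino acids, which met the rule, and of -0.93 without serum, which did not. Fraction 3 lies at the edge of the profile, but without the outermost fractions the RAB3B shifts were still -3.02 and -0.86. The scale of the fractions decided these values. With spike-in scaling the RAB3B shifts were -0.01 and 2.93, and with equal totals -1.06 and 0.32. RAB3A had -0.28 and -0.43, RAB3C 1.19 and 1.32, and RAB3D 0.34 and 0.74. Equal totals put RAB3A at -1.98 and -2.10, and RAB3D at -1.74 without amino acids, all past the rule as lower. RAB3C was then past it as higher without serum, at 1.71. On the deposited scale RAB3C did not meet the rule because odd and even fractions differed (3.41 and -0.56 without amino acids, 2.55 and 0.12 without serum). Its median signal was 4.41, 4.46 and 8.39 in the amino acid-starved, serum-starved and log phase gradients.

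RABs of other roles held both directions. RAB40B (chr17:82654973-82698698), which joins a SOCS box to its GTPase and serves in CUL5 ubiquitin ligases, had a lowest, median and highest signal of 1.58, 103 and 779 without amino acids, 1.21, 122 and 554 without serum, and 1.99, 338 and 2022 in log phase. The maximum was in fraction 10 in both starved gradients and in fraction 16 in log phase. Fractions 8 to 12 held 59.8% and 51.5% without amino acids and without serum, against 14.7% in log phase. RAB40B shifts were -2.13 and -1.70, and -2.22 and -1.60 with spike-in scaling. With equal totals they were -2.27 and -0.95, and the serum call was lost. Its relative RAB40C stood at 0.33 and 0.02. RAB39B, a neuronal RAB, was lower without serum (-1.19) and just outside the rule without amino acids (-0.997). RAB23, a regulator of Hedgehog signalling, was higher in both comparisons (1.54 and 1.02), and RAB20, of endosomes and phagosomes, in the serum comparison (1.03, and 0.71 without amino acids). The remaining 4, RAB12, RAB28, RAB34 and RAB36, ranged over 0.04 to 0.59 without amino acids and -0.56 to 0.71 without serum, and 0 of the 4 met the rule on the deposited scale. With equal totals RAB28 was past it as higher without amino acids (1.05) and RAB12 as lower without serum (-1.05).

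**Figure D4:**
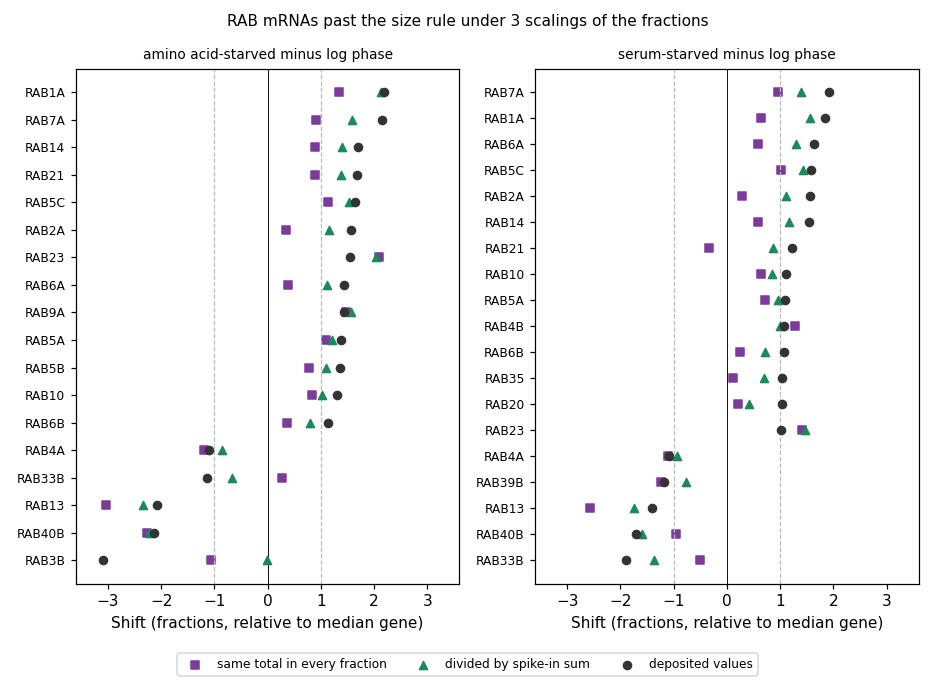
Shifts of the RAB mRNAs past the size rule, amino acid-starved minus log phase (left) and serum-starved minus log phase (right), from the deposited values, after division by the spike-in sum, and with the same total in every fraction, with dashed lines at 1 and -1. RAB13 and RAB40B stay negative under each scaling, RAB1A and RAB7A stay positive, and RAB3B moves from -3.10 to -0.01 under spike-in scaling.

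Paralogs that share a number gave 16 pairs over 9 numbers, and 7 pairs without amino acids and 9 without serum lay at least 1 fraction apart in shift. No share of other gene pairs was computed as a background. The counts include RAB3 pairs that share genes, and some of these changed sign with the scale. RAB3B minus RAB3D was -1.67 without serum, 1.08 under equal totals and 2.69 after division by the spike-in sum. RAB3A minus RAB3B was 2.83 without amino acids, then -0.92 and -0.72 in that order. RAB3A minus RAB3C and RAB3A minus RAB3D without serum, and RAB3B minus RAB3C without amino acids, kept their sign. The widest outside the RAB3 group was RAB40B minus RAB40C, at -2.46 without amino acids, followed by RAB1A minus RAB1B at 2.41. Without serum RAB1A minus RAB1B was 1.67, and with equal totals the 2 values for this pair were 3.41 and 2.00. RAB1B, the other ER to Golgi RAB1, had shifts of -0.23 and 0.16. Equal totals put RAB1B at -2.07 and -1.35, past the rule as lower in both comparisons. Its share in fractions 18 to 22 was 33.5%, 51.7% and 66.8% in the amino acid-starved, serum-starved and log phase gradients. In log phase RAB1A lay 1.63 fractions lower than RAB1B (-1.63), so the starved positions of the pair were closer. RAB2A minus RAB2B was 1.67 and 1.80, but 0.34 and 0.21 with equal totals. In contrast, the pairs of RAB5A, RAB6A, RAB8A and RAB11A with their relatives were within 1 fraction in both comparisons (RAB11A minus RAB11B reached 1.24 without amino acids with equal totals), and RAB5B minus RAB5C was -0.29 without amino acids and -1.02 without serum.

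Set beside the start sequences, 2 of the 4 RABs with an entry that were lower in either starvation had the pyrimidine start (RAB4A and RAB13), 0 of the 13 with an entry that were higher, and 1 of the 19 others (RAB3D, at 0.34 and 0.74). With equal totals RAB3D was lower without amino acids (-1.74). Among all tested genes with an entry, 166 lower genes had the start and 683 lacked it without amino acids, and 168 and 676 without serum. Of the higher genes, 16 had it and 576 lacked it without amino acids, and 14 and 472 without serum. A start was thus rare among higher genes in general. RAB40B, lower in both comparisons, and RAB3B, lower without amino acids, have an annotated first base of G and A and no such start. Over all tested genes with an entry, 33.7% of those with the start were lower without amino acids, against 8.32% of those without it, and 34.1% against 8.24% without serum. Leaving out ribosomal protein genes, these shares were 28.4% and 28.9% for genes with the start. The match of a start is a description of the annotation, and the rule for it was written with the shifts known.

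Abundance was set beside the shift. Across the 44 genes of these gradients, the shift and the log phase level had a Pearson r of 0.24 without amino acids and 0.27 without serum (Spearman 0.28 and 0.27), given as a description over genes of the same libraries. Among the 8 most abundant RABs (RAB11A, RAB7A, RAB5C, RAB1B, RAB1A, RAB13, RAB14 and RAB4A) 4 were higher and 2 lower in each comparison, with median shifts of 0.74 without amino acids and 0.85 without serum. Among the other 36 RABs, 9 were higher and 3 lower without amino acids and 10 and 3 without serum, with medians of 0.47 and 0.43, beside 6.84% and 5.7% of all genes higher.

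The starvations themselves were also compared. Amino acid-starved minus serum-starved shifts of the RABs had a median of 0.09, with 0 of 44 higher (2.01% of all genes) and 1 lower (1.06%). That gene was RAB3B, at -2.15, and its share in fractions 3 to 7 given above was the largest of any RAB. The difference was also negative with equal totals (-1.34) and under spike-in scaling (-2.94). The next differences were 0.81 for RAB5B and 0.80 for RAB15, below the rule, and RAB13 stood at -0.65. RAB21 would be higher with equal totals (1.28, against 0.46).

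Summed over the gradient, RAB signal made up 1048, 1195 and 1872 per 1000000 of total signal in the amino acid-starved, serum-starved and log phase gradients. A level of a gene was its summed signal on this scale, and in such bulk material fewer cells with an mRNA and less of it per cell cannot be told apart. Of the 44 RABs, 33 reached a level of 5 in either gradient of a comparison, and log2 ratios (pseudocount 1) were centred on the median gene. The median gene itself stood at -0.59 without amino acids and -0.43 without serum before centring. The median RAB ratio was -0.21 without amino acids and -0.20 without serum. By a size rule of 1 on the log2 scale with 0.5 in odd and even fractions, 1 RAB was higher (4.96% of all genes) and 1 lower (2.84%) without amino acids, and 0 were higher (3.06%) and 0 lower (0.903%) without serum. Between the starvations 0 were higher (0.187%) and 0 lower (0.0401%).

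RAB14 was the RAB with a lower level without amino acids. Its level was 27.3 without amino acids and 40.0 without serum, against 105 in log phase, and the centred log2 ratios were -1.32 and -0.94. With equal totals they were -0.56 and -0.50. RAB7A, at 56.1 and 82.6 against 170.5 in log phase, had ratios of -0.998 and -0.61, the first just outside the rule. RAB3B was the RAB with a higher level without amino acids, at 8.21 there and 6.12 without serum, against 4.88 in log phase. The RAB3B ratio of 1.24 turned to -1.44 with equal totals. Several RABs of high shift, such as RAB1A (-0.75 and -0.52), RAB10 (-0.78 and -0.63) and RAB21 (-0.85 and -0.64), had level ratios below the median gene. RAB4B (0.90 and 0.71), of higher shift without serum, and RAB9A (0.41 and 0.24), of higher shift without amino acids, had ratios above it. RAB4A (0.39 and 0.36) and RAB13 (0.42 and 0.33), of low shift, also had ratios above it, but equal totals put RAB4A at -0.0005 and 0.10. Position and level come from the same signal and the same fraction scale and are not independent measures.

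The machinery that serves RABs was read by the same rule, which 6.84% of all genes met as higher and 9.57% as lower without amino acids, and 5.7% and 9.86% without serum. Of 8 tested genes for prenylation and GDI, 1 was higher and 3 lower without amino acids, and 0 and 2 without serum. With equal totals 1 was higher and 1 lower (12.5%) without amino acids, and 0 and 1 (12.5%) without serum. Of all genes, 16% and 13.1% were then lower, so the lower shares were no longer above the background. GDI2, which extracts RABs from membranes, had shifts of -2.72 and -2.22 (-3.45 and -3.08 with equal totals). CHM, an escort protein, had -1.31 and -2.18, which were 0.05 and -0.39 with equal totals. RABGGTB, the catalytic subunit of the transferase, met the rule without amino acids at -1.39. RABIF, a GTP-free RAB chaperone, was higher there at 1.79.

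Of 40 exchange factors, 1 was higher and 3 lower (7.5%) without amino acids, and 0 and 3 (7.5%) without serum, the lower shares being near those of all genes (9.57% and 9.86%). With equal totals the counts were 3 and 5, and 3 and 3. HPS4, of the exchange factor for RAB32 and RAB38, had 1.08 without amino acids. DENND6B had -1.28 and -1.82 and DENND1A, a RAB35 exchange factor, -1.02 and -1.21, and both were between -0.23 and 0.11 with equal totals. TRAPPC10 had -1.15 without amino acids and TRAPPC8 -1.21 without serum, both subunits of TRAPP complexes that act on RAB1 and RAB11. Of 35 GTPase-activating proteins, 2 were higher and 2 lower (5.71% each) without amino acids, and 1 (2.86%) and 4 (11.4%) without serum. With equal totals these counts were 3 and 4, and 1 and 5. TBC1D7, also the third subunit of the TSC complex, was higher in both (1.18 and 1.34) and TBC1D13 lower in both (-1.03 and -1.18). TBC1D10A (1.19) and RABGAP1L (-1.08) met the rule without amino acids, and TBCK (-1.46) and TBC1D1 (-1.34) without serum. Of 28 effectors, 0 were higher and 2 lower (7.14%) in each comparison. Equal totals gave 3 and 6 without amino acids and 5 and 7 without serum, beside the equal-totals shares of all genes given above. Lower on the deposited scale were USO1, the RAB1 tether of ER to Golgi vesicles, at -1.70 and -1.94, and APPL2, a RAB5 effector, at -1.21 and -1.08.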

How the data were processed

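Values came from 60 fraction samples of 3 gradients. The 3 lysate samples were not analysed here. The submitters' processing notes name kallisto 0.44.0, sleuth 0.29.0 and hg38. The authors' deposited signal has 1 value per gene symbol and fraction, in a table called TPM, and the sources used here do not state its scale per fraction. A luciferase row and 29 ERCC spike-in rows were left out. Samples were mapped by label.

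Positions, shifts and levels were computed over all genes with Python 3.11.15, numpy 2.4.6 and pandas 2.3.3, and checked on simulated data. Gene coordinates and promoter windows came from RefSeq (GRCh38.p14). Named RABs were those past a size rule, the 5 lowest and 5 highest positions per gradient, the 8 most abundant and their paralogs, with up to 3 genes each way per other list. The few other RABs named complete a role group. RAB members and gene lists were chosen with earlier results of these data known. Alternatives were equal fraction totals, spike-in scaling, log2 weights, no outermost fractions, no centring, other filters, another pseudocount, each fraction left out, and, chosen after seeing the data, centring within 10 bins of starting position.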

Additional observations from a re-analysis of the deposited data

How the results depend on the processing

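With 1 gradient per condition, unknown depth and an unknown scale per fraction, these values describe single gradients. The cause of the changes below was not tested. With spike-in scaling the lower shift counts were 2 without amino acids and 3 without serum, the level counts without amino acids 0 higher and 0 lower, the median level ratio without serum -0.17 and between starvations 0.0070, and the median positions 16.50 in serum-starved and 16.60 in log phase cells. With log2 weights all shift counts were 0, the median shifts 0.081 without amino acids, 0.11 without serum and 0.015 between starvations, and the median positions 13.81, 13.88 and 14.88 (amino acid-starved, serum-starved, log phase). RAB6B and RAB21 were then at -0.0055 and -0.25 without serum. With equal totals the median shifts were 0.078, 0.13 and 0.023 (amino acids, serum, between starvations), 7 RABs were higher and 9 lower without amino acids and 5 and 8 without serum, with 1 and 2 between starvations, 2 RABs had a lower level without serum and 0 a higher one without amino acids, the median level ratios were -0.25 without serum and 0.0079 between starvations, and the log phase median position was 14.43. RAB21 was at -0.34 without serum, RAB33B at 0.27 without amino acids, and the RAB3B level ratio at -1.44. Without centring, higher shift counts were 0, lower ones 26 without amino acids, 17 without serum and 2 between starvations, with medians of -1.33, -0.92 and -0.38, and 13 and 8 RABs had lower and 0 higher levels, with median ratios of -0.80, -0.63 and -0.21. Uncentred shifts without amino acids were RAB2A -0.24, RAB5A -0.42, RAB5B -0.45, RAB5C -0.15, RAB6A -0.36, RAB6B -0.66, RAB9A -0.36, RAB10 -0.49, RAB14 -0.10, RAB21 -0.13 and RAB23 -0.26, and without serum RAB4B -0.28, RAB5A -0.25, RAB6B -0.28, RAB10 -0.24, RAB20 -0.31, RAB21 -0.12, RAB23 -0.33 and RAB35 -0.31. A pseudocount of 5 gave 0 higher and 2 lower levels without amino acids and a median ratio of -0.25 without serum. With no filter on levels, 2 were higher and 3 lower without amino acids and 1 lower without serum, with median ratios of -0.025, -0.20 and, between starvations, 0.0016. A mean signal of 20 gave a log phase median of 16.51. Leaving out each fraction in turn, higher shift counts ran over 12 to 14 without amino acids, 8 (without fraction 19) to 14 without serum and 0 to 1 (without 19) between starvations, and lower ones over 3 (without 18) to 6, 3 (without 18) to 7 and 1 to 1. Median shifts ran over 0.41 to 0.57, 0.39 to 0.48 and -0.0025 (without 21) to 0.14, level ratios over -0.34 to -0.17, -0.25 to -0.18 and -0.060 to 0.0013 (without 18), and positions over 14.81 to 15.73, 15.32 to 16.18 and 16.31 to 16.84 (amino acid-starved, serum-starved, log phase). Without amino acids, higher levels numbered 0 (without fraction 3) to 1, and lower levels 1 to 4 (4 without 19, 2 without 18, 20, 21 or 22). Without serum, lower levels numbered 0 to 1 (1 without 19, 20 or 21). No paired analysis was possible because each condition had only 1 gradient.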

Other observations

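Other small GTPase families were read by the same size rule, from lists chosen with earlier results known. The 25 ARF, ARL and SAR1 genes, which act in vesicle coat assembly and organelle traffic, gave 7 higher and 0 lower without amino acids and 5 and 0 without serum, with median shifts of 0.34 and 0.45 (0.28 and 0.23 with equal totals, where 5 and 3 were higher and 1 and 1 lower). Of all genes, 6.84% and 5.7% were higher and 9.57% and 9.86% lower in these comparisons. The shares of all genes with equal totals were 13% and 12.1% higher and 16% and 13.1% lower. ARF4 had 2.73 and 2.12, ARF3 1.94 and 1.72, and ARL1 1.37 without serum. The 17 RAS, RAP and RAL genes gave 4 higher and 0 lower without amino acids, and 3 and 0 without serum (3 and 1, and 1 and 0, with equal totals). RALA, an exocytosis GTPase, had 1.42 and 1.06, RIT1 1.22 and 1.32, NRAS 1.12 without amino acids and RAP1B 1.04 without serum. Between the starvations NRAS was higher at 1.02, and RABIF, a RAB chaperone, at 1.54.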
